A study of Mus musculus with 12 samples.

Results

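Transforming growth factor beta (TGF-beta) signalling was examined at the level of 9 genes: the ligands Tgfb1, Tgfb2 and Tgfb3, the latent-binding protein family member Ltbp2, the receptors Tgfbr1, Tgfbr2 and Tgfbr3, and the signal transducers Smad3 and Smad7. The genes were chosen by name from a table of 27912 genes, where each of the 9 names matched 1 gene, and all 9 had enough reads to be tested. Bulk RNA sequencing of liver compared 2 groups of male mice that were 8 weeks old at the start and were fed a diet high in fat and cholesterol with cholate (the CL diet) for 12 weeks. The groups were CCR1-KO mice, which carry a knockout of the chemokine receptor CCR1 (replicates 65, 66 and 67), and wild-type C57BL/6 (WT) mice (replicates 62, 63 and 64). The other 6 of the 12 libraries of the series were not analysed here, and neither were chow-fed livers, so both groups share the diet. Which part of Ccr1 was deleted and how the knockout line was bred are not given in the sources used here.

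TGF-beta ligands are secreted in a latent complex that latent TGF-beta binding proteins tether to the extracellular matrix. Once freed, a ligand binds the type II receptor (Tgfbr2), which recruits and phosphorylates the type I receptor (Tgfbr1), and the type I receptor phosphorylates SMAD2 and SMAD3, which enter the nucleus with SMAD4. SMAD7 is induced by the signal and shuts the receptor down. In liver the pathway is best known for driving stellate cells to deposit collagen, and it also restrains hepatocyte growth and macrophage activation.

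The libraries held 74699391 to 76785243 reads assigned to genes in CCR1-KO and 75301760 to 79154085 in WT, and 1 read was worth 0.0113 to 0.0167 CPM, the count scaled to the library's effective size. Hepatocyte markers were abundant in every library, with a sum over the 15 listed markers present of 92441 to 115936 CPM in CCR1-KO and 86172 to 103033 CPM in WT; 5 of the 15 rose, 0 fell and their median log2 fold change was 0.72. Ccr1, the targeted gene on chromosome 9, was counted with 11, 4 and 14 reads in the CCR1-KO livers (65, 66 and 67) and 100, 23 and 123 reads in the WT livers (62, 63 and 64). The groups did not overlap (log2 fold change -2.72), but the adjusted p of 0.075 missed the threshold. Ccr1 passed in 2 of 14 alternative fits, DESeq2 (adjusted p = 0.0065) and edgeR with no scaling factors (0.0498). Unless another test is named, an adjusted p here and throughout comes from the quasi-likelihood F test of edgeR. It was corrected by the Benjamini-Hochberg method over all 17729 genes tested, and genes pass at 0.05. By this test 640 genes (3.61%) were lower and 501 (2.83%) were higher in CCR1-KO than in WT, 6.44% in all. Groups of 3 livers did not overlap in 32.6% of the tested genes, with CCR1-KO lower in 17.4% of the tested genes and higher in 15.2%.

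Of the 9 members, 2 fell in CCR1-KO livers, 0 rose and 7 did not pass, beside 6.44% of all genes past the threshold. The 2 were Tgfb1, the ligand most studied in fibrosis, and Tgfbr2, the receptor that binds the ligands first. The groups of 3 members did not overlap, Tgfb1, Tgfbr2 and Ltbp2, all lower in CCR1-KO. Among all tested genes the groups did not overlap in 32.6%, with CCR1-KO lower in 17.4% and higher in 15.2%. Over the 9 members the median log2 fold change was -0.17, beside 0.0017 over all genes tested, and 5 of the 9 had a negative value. The members were picked with results of these data known, so these counts describe them and no more.

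Promoter sequences of the 2 members that fell are shown with those of the nearest member in role that did not pass, the ligand Tgfb2 and the type I receptor Tgfbr1. Each runs from 250 bases before to 50 bases after the start site (RefSeq, GRCm38.p6), on the gene's own strand. Capitals mark matches, on either strand, to the GC box GGGCGG, the TATA box TATAAA, the E box CACGTG, the AP-1 site TGANTCA or the palindromic SMAD element GTCTAGAC; no marked matches overlap. Tgfb1 lies at chr7:25686752-25687051 (plus strand), Tgfbr2 at chr9:116175314-116175613 (minus strand), Tgfb2 at chr1:186705940-186706239 (minus strand) and Tgfbr1 at chr4:47352972-47353271 (plus strand).
Tgfb1: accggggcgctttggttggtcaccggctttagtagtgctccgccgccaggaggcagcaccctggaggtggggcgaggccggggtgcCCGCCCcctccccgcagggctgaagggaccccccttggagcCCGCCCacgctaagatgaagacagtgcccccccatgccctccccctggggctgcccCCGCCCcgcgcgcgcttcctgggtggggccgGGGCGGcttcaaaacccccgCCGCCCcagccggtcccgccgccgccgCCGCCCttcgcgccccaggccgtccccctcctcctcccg
Tgfbr2: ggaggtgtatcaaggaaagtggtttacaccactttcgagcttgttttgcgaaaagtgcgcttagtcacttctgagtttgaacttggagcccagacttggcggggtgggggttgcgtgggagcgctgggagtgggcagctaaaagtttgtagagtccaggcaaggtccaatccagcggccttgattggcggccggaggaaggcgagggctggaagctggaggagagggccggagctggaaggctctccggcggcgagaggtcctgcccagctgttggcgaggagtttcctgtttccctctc
Tgfb2: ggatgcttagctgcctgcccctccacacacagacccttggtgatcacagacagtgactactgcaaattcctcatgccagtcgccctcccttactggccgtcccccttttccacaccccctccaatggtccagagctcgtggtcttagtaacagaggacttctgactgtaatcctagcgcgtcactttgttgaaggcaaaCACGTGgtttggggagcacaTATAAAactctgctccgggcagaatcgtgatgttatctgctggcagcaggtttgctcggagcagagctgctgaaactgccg
Tgfbr1: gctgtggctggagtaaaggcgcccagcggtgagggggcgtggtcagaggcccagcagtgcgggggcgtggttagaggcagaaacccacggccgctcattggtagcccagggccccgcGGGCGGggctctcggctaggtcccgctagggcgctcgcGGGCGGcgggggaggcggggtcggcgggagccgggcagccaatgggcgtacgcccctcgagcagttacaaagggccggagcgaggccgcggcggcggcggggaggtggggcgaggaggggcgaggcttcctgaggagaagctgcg
The Tgfb1 window, 77% G and C, held 6 GC boxes and no TATA box. The Tgfb2 window, 54.3% G and C, held a TATA box that begins 31 bases before the start and an E box that begins 51 bases before it, and no GC box. The Tgfbr1 window (74.7% G and C) held 2 GC boxes, and the Tgfbr2 window (59.0%) held a match to none of the 5 motifs. With no match in the Tgfbr2 window, the 2 members that fell could share none of these motifs. Among all 32851 promoter windows of this length, 35.7% held a GC box, 13.6% a TATA box, 7.15% the E box, 7.81% the AP-1 site and 0.213% the SMAD palindrome, and the median G and C content was 52.7%. Entries were matched for 6 of the 9 members, of which 4 are shown. A match is a run of letters and was not tested as a binding site.

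Tgfb1 (ENSMUSG00000002603, chromosome 7, 25687002 to 25705077, plus strand, GRCm38) encodes the ligand made in liver mainly by macrophages, platelets, endothelial and stellate cells. In CCR1-KO replicates 65, 66 and 67 it was counted with 374, 220 and 178 reads, and in WT replicates 62, 63 and 64 with 775, 594 and 571 reads. In CPM the levels were 4.68, 3.37 and 2.98 CPM in CCR1-KO livers and 9.41, 6.71 and 6.49 CPM in WT livers. Every CCR1-KO liver lay below every WT liver, and WT replicate 62 was the highest. The means were 3.68 ± 0.889 CPM in CCR1-KO and 7.54 ± 1.63 CPM in WT (SD, n = 3 each), so CCR1-KO had 48.8% of the WT level. CCR1-KO over WT gave a log2 fold change of -1.03 ± 0.25 (SE; 95% interval -1.60 to -0.47), with adjusted p = 0.0493. Permuting the labels of the 6 livers (exact, two-sided) gave p = 0.10, the smallest that 3 against 3 allow.

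The call for Tgfb1 sat at the edge of the threshold. With 1 library left out it passed only without CCR1-KO replicate 65 (log2 fold change -1.25, adjusted p = 0.0198). It missed without CCR1-KO replicate 66 (adjusted p = 0.135) or 67 (0.127) and without WT replicate 62 (0.148), 63 (0.127) or 64 (0.120), while the log2 fold change stayed between -1.25 and -0.84 in these 6 fits. The call was also lost with no filter on low counts (adjusted p = 0.0720).

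**Figure D1:**
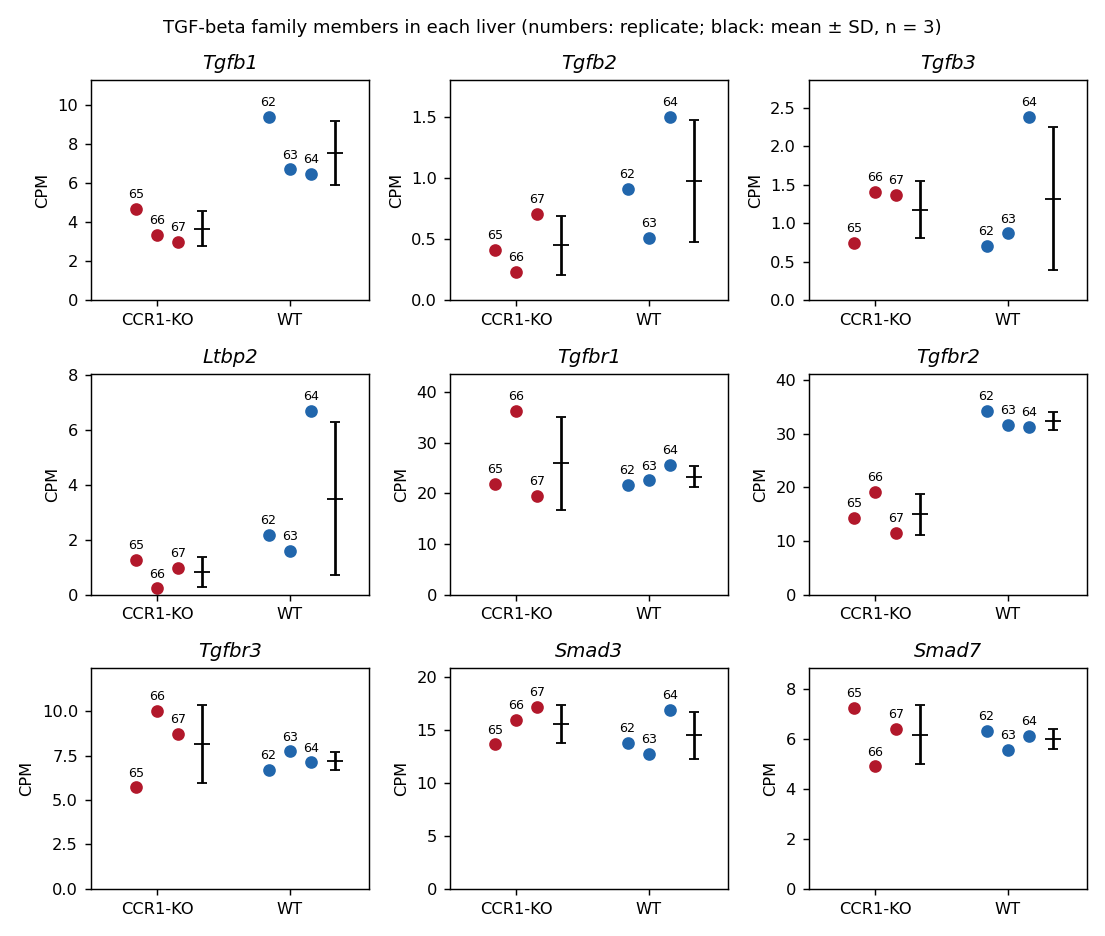
Each panel plots the CPM (vertical axis) of 1 member in the 3 CCR1-KO livers (left, red) and the 3 WT livers (right, blue), with replicate numbers beside the points and the mean ± SD in black. Tgfbr2 is at 11.6 to 19.2 CPM in CCR1-KO and 31.3 to 34.3 CPM in WT, while WT replicate 64 stands above the other 5 livers for Tgfb2, Tgfb3 and Ltbp2.

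The other ligands were much scarcer and did not pass. Tgfb2 (ENSMUSG00000039239, chromosome 1, 186622792 to 186705989), a ligand that needs the coreceptor for high-affinity binding, was counted with 33, 15 and 42 reads in the CCR1-KO livers and 75, 45 and 132 reads in the WT livers. This was 0.448 ± 0.238 CPM in CCR1-KO and 0.973 ± 0.499 CPM in WT, and the groups overlapped, since CCR1-KO replicate 67 (0.703 CPM) lay above WT replicate 63 (0.508 CPM). The log2 fold change was -1.12 ± 0.56 (95% interval -2.42 to 0.18, adjusted p = 0.264). Its estimate is close in size to that of Tgfb1, with a wider interval that includes 0.

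Tgfb3 (ENSMUSG00000021253, chromosome 12, 86056745 to 86079041), the third ligand, had 0.750, 1.41 and 1.37 CPM in CCR1-KO replicates 65, 66 and 67, against 0.705, 0.870 and 2.39 CPM in WT replicates 62, 63 and 64. WT replicate 64 was the highest liver and WT replicate 62 the lowest, so the CCR1-KO livers lay within the WT range. The log2 fold change was -0.17 ± 0.52 (95% interval -1.37 to 1.03, adjusted p = 0.875). Its sign turned without WT replicate 64 (0.57, adjusted p = 0.523) and without CCR1-KO replicate 65 (0.074, adjusted p = 0.946).

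Levels of different genes can be set side by side only per length, for which the deposited FPKM values were used (fragments scaled to gene length and library size, with no further scaling between libraries). Summed over the 3 ligands, FPKM was 1.17, 0.890 and 0.800 in CCR1-KO replicates 65, 66 and 67, against 2.15, 1.70 and 2.40 in WT replicates 62, 63 and 64. The gap between the groups in these sums includes a general shift of FPKM. The median log2 fold change of the genes tested was -0.23 in limma on log2(FPKM + 0.5), against 0.0017 in edgeR's fit. Tgfb1 made up 76.1%, 59.6% and 52.5% of this sum in the CCR1-KO livers and 83.7%, 79.4% and 57.1% in the WT livers. It was the leading ligand transcript in all 6 livers, and its share overlapped between the groups. Tgfb3 made up 17.9%, 37.1% and 36.3% of the sum in CCR1-KO and 9.30%, 15.3% and 31.3% in WT. Tgfb2 did not exceed 11.7% in any liver.

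**Figure D2:**
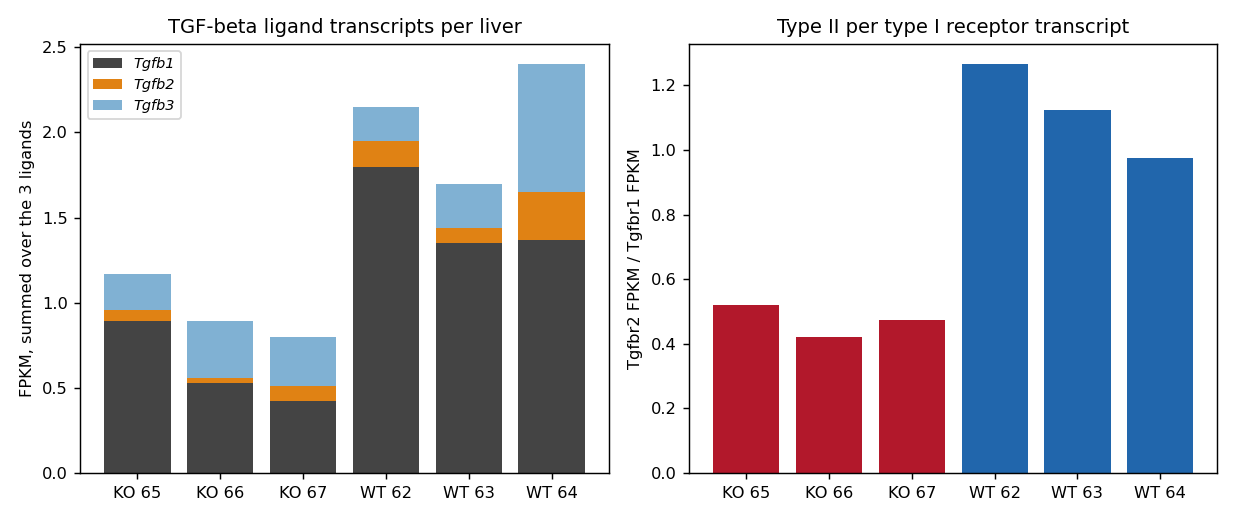
Left, stacked bars give the FPKM of Tgfb1, Tgfb2 and Tgfb3 in each liver (CCR1-KO first, then WT): the sums reach 0.800 to 1.17 in CCR1-KO and 1.70 to 2.40 in WT. These values have no further scaling between libraries. Right, bars give Tgfbr2 FPKM divided by Tgfbr1 FPKM in the same livers, 0.422 to 0.520 in CCR1-KO and 0.976 to 1.26 in WT.

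Ltbp2 (ENSMUSG00000002020, chromosome 12, 84783212 to 84876532) belongs to the latent TGF-beta binding protein family, but unlike its relatives its product is a microfibril protein that does not bind latent TGF-beta. It was counted with 101, 15 and 59 reads in the CCR1-KO livers and 180, 141 and 589 reads in the WT livers. In CPM this was 1.26, 0.230 and 0.987 in CCR1-KO and 2.19, 1.59 and 6.70 in WT. The groups did not overlap, and WT replicate 64 had 3.06 times the level of the next highest liver. Its log2 fold change of -2.07 ± 0.72 was the largest in size of the 9 members, but it missed the threshold (95% interval -3.73 to -0.41, adjusted p = 0.130). Without WT replicate 64 it was -1.19 (adjusted p = 0.390), and DESeq2 called it with all 6 libraries (adjusted p = 0.0155). Ltbp2 and Tgfb3 lie 1.18 Mb apart on chromosome 12. Both were highest in WT replicate 64, as was Tgfb2 on chromosome 1, and a link between position and level was not tested.

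Tgfbr2 (ENSMUSG00000032440, chromosome 9, 116084293 to 116175360, minus strand) had the smallest p of the 9 members. Counts were 1139, 1251 and 691 in the CCR1-KO livers (65, 66 and 67) and 2823, 2797 and 2753 in the WT livers (62, 63 and 64). In CPM this was 14.2, 19.2 and 11.6 in CCR1-KO and 34.3, 31.6 and 31.3 in WT. The WT livers were nearly alike, with an SD of 5.10% of their mean, and the highest CCR1-KO liver lay far below the lowest WT liver. The means were 15.0 ± 3.86 CPM in CCR1-KO and 32.4 ± 1.65 CPM in WT, so CCR1-KO had 46.3% of the WT level. This is a log2 fold change of -1.11 ± 0.18 (95% interval -1.54 to -0.68, adjusted p = 0.0188), which ranked 324 of 17729 genes by p. Permuting the 6 livers again gave the smallest possible exact p, 0.10.

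Left-out libraries moved the call for Tgfbr2 more than its size. It passed without any of the 3 CCR1-KO libraries (adjusted p between 0.0168 and 0.0439) and missed without WT replicate 62 (0.0702), 63 (0.0802) or 64 (0.0788). Its size stayed between -1.33 and -0.96 in these fits. Tgfbr2 lies 7.79 Mb from Ccr1 on the same chromosome. Of 107 tested genes within 10 Mb of Ccr1, 4 fell, Tgfbr2 itself among them, and 3 rose. This was 6.54%, beside 6.44% of all genes. Whether Tgfbr2 follows the loss of CCR1 or the chromosome around the knocked-out gene cannot be told apart here.

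The other receptors did not pass. Tgfbr1 (ENSMUSG00000007613, chromosome 4, 47353222 to 47414931), the kinase that Tgfbr2 activates, had 21.9, 36.3 and 19.5 CPM in CCR1-KO replicates 65, 66 and 67, against 21.7, 22.5 and 25.6 CPM in WT replicates 62, 63 and 64. CCR1-KO replicate 66 was the highest liver and CCR1-KO replicate 67 the lowest. Its log2 fold change was 0.15 ± 0.23 (95% interval -0.38 to 0.68, adjusted p = 0.731), and its sign turned to negative without CCR1-KO replicate 66 (-0.17) and with no scaling factors (-0.15). Tgfbr3 (ENSMUSG00000029287, chromosome 5, 107106570 to 107289629), the coreceptor betaglycan that presents ligand to Tgfbr2, had 5.72, 10.01 and 8.72 CPM in CCR1-KO and 6.72, 7.74 and 7.12 CPM in WT. The CCR1-KO range enclosed the WT range. Its log2 fold change was 0.18 ± 0.22 (95% interval -0.34 to 0.69, adjusted p = 0.668), and -0.15 with no scaling factors.

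A ratio of 2 genes within a liver does not depend on how libraries are scaled to each other. Tgfbr2 FPKM divided by Tgfbr1 FPKM was 0.520, 0.422 and 0.474 in CCR1-KO replicates 65, 66 and 67, against 1.26, 1.12 and 0.976 in WT replicates 62, 63 and 64. The type II transcript was at 0.472 ± 0.0490 of the type I transcript in CCR1-KO livers and at 1.12 ± 0.144 in WT livers, with no overlap. Tgfbr2 divided by Tgfbr3 gave 1.53 ± 0.468 in CCR1-KO and 3.63 ± 0.426 in WT, again with no overlap. In contrast, Tgfb1 divided by Tgfbr2 was 0.410 ± 0.123 in CCR1-KO and 0.374 ± 0.0597 in WT, so the 2 members that fell kept overlapping ratios to each other.

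The SMAD genes did not pass. Smad3 (ENSMUSG00000032402, chromosome 9, 63646767 to 63757994), which encodes the factor that carries the TGF-beta signal to DNA, had 13.7, 15.99 and 17.2 CPM in CCR1-KO replicates 65, 66 and 67, against 13.8, 12.7 and 17.0 CPM in WT replicates 62, 63 and 64. The groups overlapped almost fully, and the log2 fold change was 0.10 ± 0.16 (95% interval -0.26 to 0.47, adjusted p = 0.728). Smad7 (ENSMUSG00000025880, chromosome 18, 75367529 to 75395935), the inhibitor that TGF-beta itself induces, had 7.24, 4.90 and 6.41 CPM in CCR1-KO and 6.32, 5.56 and 6.12 CPM in WT. CCR1-KO replicate 65 was the highest liver and CCR1-KO replicate 66 the lowest. Its log2 fold change was 0.045 ± 0.19 (95% interval -0.40 to 0.49, adjusted p = 0.913). With no scaling factors both were negative, -0.22 for Smad3 and -0.24 for Smad7. Changes of the size of Tgfb1 or Tgfbr2 lie outside both intervals. Smad7 FPKM divided by Smad3 FPKM was 0.493 ± 0.140 in CCR1-KO and 0.511 ± 0.0614 in WT.

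**Figure D3:**
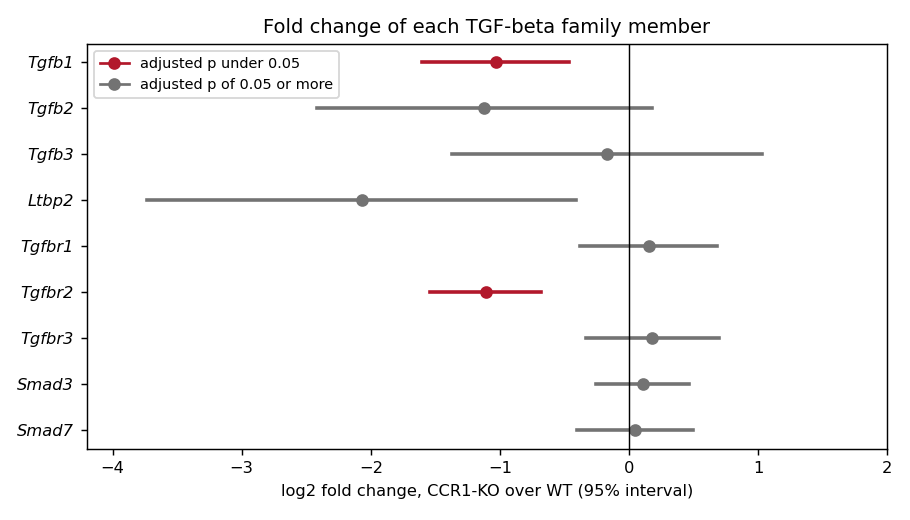
Points give the log2 fold change of CCR1-KO over WT for each member (horizontal axis) and lines its 95% interval from edgeR's fit; red marks an adjusted p under 0.05. Tgfb1 (-1.03) and Tgfbr2 (-1.11) are red, Ltbp2 (-2.07) has the longest line, and the lines of Tgfbr1, Tgfbr3, Smad3 and Smad7 lie around 0.

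In order of FPKM, the CCR1-KO livers had Tgfbr1 (3.26), Smad3 (2.30), Tgfbr2 (1.52), Smad7 (1.14), Tgfbr3 (1.00), Tgfb1 (0.613), Tgfb3 (0.277), Ltbp2 (0.0833) and Tgfb2 (0.0633). In the WT livers the order was Tgfbr2 (4.02), Tgfbr1 (3.63), Smad3 (2.67), Tgfb1 (1.51), Smad7 (1.35), Tgfbr3 (1.12), Ltbp2 (0.443), Tgfb3 (0.403) and Tgfb2 (0.173). Tgfbr2 was therefore first in WT and stood below Smad3 in CCR1-KO, where the ranges of Smad3 (2.21 to 2.38) and Tgfbr2 (1.01 to 1.87) did not overlap. In CCR1-KO the ranges of neighbours overlapped except between Smad3 and Tgfbr2, between Tgfb1 and Tgfb3 and between Tgfb3 and Ltbp2. In WT they overlapped except between Smad3 and Tgfb1, between Smad7 and Tgfbr3 and between Tgfbr3 and Ltbp2. The values of Tgfb2 and Ltbp2 in CCR1-KO rest on FPKM of 0.02 to 0.15, given to 2 decimals in the deposited table, so their order is coarse.

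Likeness between members was measured as the root mean square difference of log2 CPM over the 6 livers, each gene centred on its own mean. Among the 36 pairs the closest were Tgfbr3 and Smad3 (0.23), Smad3 and Smad7 (0.26), Tgfbr1 and Tgfbr3 (0.26) and Tgfb1 and Tgfbr2 (0.30), and Ltbp2 and Tgfbr3 were the farthest apart (1.58). The same measure was taken to other tested genes with a mean FPKM of at least 1 in either group. Predicted models, pseudogenes, antigen receptor segments and symbols shared by several genes were left out. Among the 9454 genes kept, the closest to Tgfb1 were Ccdc122 (0.097), Ifi211 (0.11), of the interferon-inducible Ifi200 family, and Det1 (0.12). The closest to Tgfbr2 were Acaca (0.13), the acetyl-CoA carboxylase of fatty acid synthesis, Smox (0.17), the spermine oxidase, and Olfml1 (0.18). These distances describe 6 livers of 2 groups, whose group difference they include.

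The neighbouring genes of the pathway were described by lists drawn from textbook knowledge, and some genes stand on several lists. In the list of latency and activation, 6 of 19 tested genes fell and 0 rose, with 13 not past the threshold, beside 3.61% of all tested genes that fell. The median log2 fold change was -0.53, beside 0.0017 over all genes. Ltbp4, a latent TGF-beta binding protein, had 20.6, 19.4 and 20.2 CPM in CCR1-KO replicates 65, 66 and 67, against 32.2, 32.7 and 38.1 CPM in WT replicates 62, 63 and 64 (log2 fold change -0.77 ± 0.12, adjusted p = 0.0142). Fbn1, the microfibril protein fibrillin-1 to which these complexes are anchored, had 2.03 ± 0.423 CPM in CCR1-KO and 7.01 ± 3.81 CPM in WT (log2 fold change -1.78 ± 0.39, adjusted p = 0.0389). Mmp14, a membrane-bound metalloproteinase, fell by 1.03 on the log2 scale (adjusted p = 0.0182), and Itgb5, an integrin subunit that pairs with alpha v, fell by 0.64 (adjusted p = 0.0420).

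The remaining 2 that fell were Ltbp1 and Ltbp3, named after their values were seen. Ltbp1 had 2.19, 2.22 and 2.89 CPM in CCR1-KO, against 4.01, 5.04 and 6.35 CPM in WT (log2 fold change -1.08 ± 0.25, adjusted p = 0.0449). Ltbp3 had 2.41, 1.41 and 2.11 CPM in CCR1-KO, against 4.36, 4.09 and 7.91 CPM in WT (log2 fold change -1.46 ± 0.34, adjusted p = 0.0449). Of the 4 genes of the latent TGF-beta binding protein family 3 fell, 2 of them named after their values were seen, beside 3.61% of all tested genes that fell. The fourth, Ltbp2, did not pass, and its groups did not overlap, as in 17.4% of all tested genes with CCR1-KO lower. With 1 library left out, Ltbp4 passed in 4 of 6 fits, Ltbp3, Mmp14, Fbn1 and Itgb5 in 1 and Ltbp1 in 0 (adjusted p of these 6 genes between 0.0085 and 0.160).

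**Figure D4:**
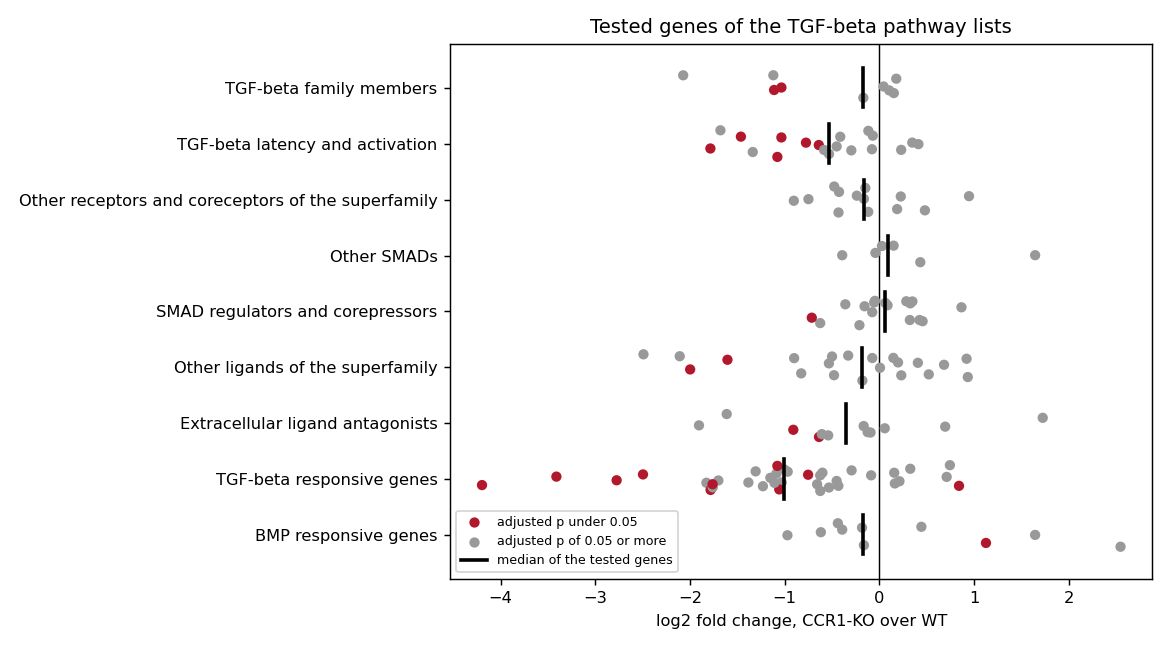
Each point is the log2 fold change of CCR1-KO over WT (horizontal axis) of 1 tested gene, in rows for the 9 members and the 8 pathway lists; red marks an adjusted p under 0.05 and the black bar the median of the row. A gene on several lists has a point in each of its rows. The row of TGF-beta responsive genes has its median at -1.002 and the rows of other SMADs and SMAD regulators have theirs at 0.089 and 0.064.

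Among 37 tested genes known to respond to TGF-beta, 9 fell, 1 rose and 27 did not pass, beside 3.61% of all tested genes that fell. The 9 include Ltbp1, which was already counted in the latency list. The median log2 fold change of the 37 genes was -1.002. Those of smallest p were Spp1, which encodes osteopontin (41.8 ± 4.07 CPM in CCR1-KO and 142 ± 35.2 CPM in WT), the actin-binding tropomyosin gene Tpm1 (21.1 ± 2.19 and 43.8 ± 6.22 CPM in the same order), Tgfbi and the fibrillar collagen gene Col3a1 (16.1 ± 4.27 CPM in CCR1-KO and 171 ± 123 CPM in WT). Tgfbi, a matrix protein named for its induction by TGF-beta, had 34.1, 36.9 and 39.4 CPM in CCR1-KO, against 61.03, 60.9 and 63.97 CPM in WT (log2 fold change -0.75 ± 0.11, adjusted p = 0.0127). Col3a1 had 313 CPM in WT replicate 64, against 89.7 and 111 CPM in WT replicates 62 and 63, and its log2 fold change was -3.41 with all libraries and -2.64 (adjusted p = 0.0156) without WT replicate 64. Spp1 and Tpm1 passed in all 6 fits with 1 library left out, Col3a1 in 5 and Tgfbi in 3. The gene that rose was Nox4, an NADPH oxidase induced by TGF-beta in fibroblasts (45.9 ± 7.67 CPM in CCR1-KO and 25.6 ± 4.47 CPM in WT, log2 fold change 0.84 ± 0.18, adjusted p = 0.0353), which kept its call in 1 of the 6 fits (without CCR1-KO replicate 65; adjusted p up to 0.132 in the others). It also lost the call with no scaling factors (0.53, adjusted p = 0.0848) and in the 3 filtered limma fits on FPKM (0.41 to 0.52, adjusted p between 0.0747 and 0.0773). Ccn2, the connective tissue growth factor gene, did not pass and was named after its values were seen; it had 9.86 ± 1.94 CPM in CCR1-KO and 8.84 ± 2.88 CPM in WT (log2 fold change 0.16 ± 0.26, adjusted p = 0.759; -0.13 with no scaling factors). Smad7, the member that is itself a target of the signal, did not pass either.

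Of 17 tested SMAD regulators, Fkbp1a fell and 16 did not pass (median 0.064), beside 6.44% of all tested genes past the threshold. Fkbp1a encodes FKBP12, which holds the type I receptor inactive, and had 38.2 ± 1.22 CPM in CCR1-KO and 62.6 ± 6.49 CPM in WT (log2 fold change -0.71 ± 0.12, adjusted p = 0.0180). With 1 library left out it passed only without CCR1-KO replicate 65, and missed in the other 5 fits (adjusted p up to 0.0788). Among 21 tested other ligands, 2 fell, 0 rose and 19 did not pass (median -0.18), beside 3.61% of all tested genes that fell. Inhbe, the activin E subunit made by hepatocytes, had 64.7, 64.4 and 50.4 CPM in CCR1-KO, against 175, 173 and 198 CPM in WT (log2 fold change -1.60 ± 0.14, adjusted p = 0.0033), and passed in all 6 fits with 1 library left out. Gdf6, a bone morphogenetic protein relative, had 0.569 ± 0.132 CPM in CCR1-KO and 2.27 ± 0.805 CPM in WT (log2 fold change -1.998 ± 0.36, adjusted p = 0.0239), and it too passed only without CCR1-KO replicate 65 (adjusted p up to 0.0951 in the other 5 fits). Inhbc, the neighbouring activin C subunit gene, had 68.7 ± 9.57 CPM in CCR1-KO and 47.8 ± 3.96 CPM in WT and did not pass (adjusted p = 0.0642).

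Of 12 tested extracellular antagonists, 2 fell, 0 rose and 10 did not pass (median -0.35), beside 3.61% of all tested genes that fell. The 2 were the small proteoglycans decorin and biglycan, which bind TGF-beta in the matrix. Dcn had 109 ± 7.93 CPM in CCR1-KO and 169 ± 17.3 CPM in WT (log2 fold change -0.64 ± 0.13, adjusted p = 0.0307), and Bgn had 77.1 ± 14.7 CPM in CCR1-KO and 145 ± 28.5 CPM in WT (log2 fold change -0.91 ± 0.19, adjusted p = 0.0375). With 1 library left out, both passed only without CCR1-KO replicate 65, and the adjusted p reached 0.124 for Dcn and 0.134 for Bgn in the other fits. Of the 13 other receptors tested, 0 passed edgeR's test, 1 passed with DESeq2 and 5 had an unadjusted p under 0.05 in edgeR. Over all genes, 4331 of 17729 had an unadjusted p under 0.05 in edgeR. DESeq2 called 2548 of the 15651 genes to which it gave an adjusted p. Groups of the 13 receptors did not overlap for 3 genes lower and 2 higher in CCR1-KO, beside 32.6% of all tested genes. The activin type I receptor gene Acvr1b had 11.6 ± 1.84 CPM in CCR1-KO and 16.2 ± 0.997 CPM in WT (adjusted p = 0.102), the activin type II receptor gene Acvr2a 21.1 ± 3.01 and 15.1 ± 0.866 CPM in the same order (adjusted p = 0.0815). The endothelial coreceptor gene Eng had 38.5 ± 1.16 CPM in CCR1-KO and 51.9 ± 13.1 CPM in WT (adjusted p = 0.182), and its type I partner Acvrl1 1.92 ± 0.741 and 3.23 ± 0.209 CPM (adjusted p = 0.183).

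Bulk liver holds several cell types that make these transcripts, and fewer cells of a type and less RNA per cell cannot be told apart in it. Of 25 tested marker genes of stellate cells and fibroblasts, 11 fell and 0 rose, beside 3.61% of all tested genes that fell. This list shares Col1a1, Col1a2, Col3a1, Acta2 and Tagln with the TGF-beta responsive genes and Dcn with the antagonists. Its counts are therefore not separate from theirs. The sum over the 26 listed markers was 445 to 532 CPM in CCR1-KO and 755 to 1392 CPM in WT. WT replicate 64, the highest liver for Ltbp2, Tgfb2 and Tgfb3, was also the highest for this sum. Endothelial markers summed to 299 to 390 CPM in CCR1-KO and 340 to 482 CPM in WT, with 2 of 20 lower and 0 higher. Of these 20, 17 had a negative log2 fold change (median -0.38), and groups did not overlap for 9 lower and 0 higher. Macrophage markers summed to 355 to 637 CPM in CCR1-KO and 454 to 564 CPM in WT, with 1 of 22 lower and 2 higher. Of these 22, 17 had a negative log2 fold change (median -0.47), and groups did not overlap for 6 lower and 2 higher. Over all tested genes, groups did not overlap with CCR1-KO lower in 17.4% and higher in 15.2%. Platelet markers summed to 8.06 to 10.5 CPM in CCR1-KO and 8.23 to 13.8 CPM in WT, and 6 of 11 were tested. Of these, 0 passed in edgeR, 1 passed in DESeq2 and 1 had an unadjusted p under 0.05 in edgeR. Over all genes, 4331 of 17729 had an unadjusted p under 0.05 in edgeR, and DESeq2 called 2548 of 15651. Bile duct markers summed to 76.5 to 163 CPM in CCR1-KO and 162 to 225 CPM in WT, with 3 of 11 lower and 0 higher. Their list includes Spp1, which is also on the list of TGF-beta responsive genes. Mesothelial markers summed to 3.08 to 4.07 CPM in CCR1-KO and 4.62 to 15.3 CPM in WT, where WT replicate 64 was again the highest. Of the 7 tested, 0 passed. No listed marker of these 6 cell types, stellate to mesothelial, was without reads in all 6 livers. Hepatocyte markers moved the other way, with 5 of 15 higher and 0 lower, and groups that did not overlap for 10 higher and 1 lower. Of all tested genes, 2.83% were higher past the threshold, and 15.2% had non-overlapping groups with CCR1-KO higher. Smooth muscle markers, which share Des, Acta2 and Tagln with the stellate list, summed to 110 to 139 CPM in CCR1-KO and 99.1 to 124 CPM in WT. Of 9 tested, 0 passed. B and plasma cell markers summed to 156 to 471 CPM in CCR1-KO and 146 to 170 CPM in WT. Of 10 tested, 0 passed, and their median log2 fold change was -1.12. The part of these marker differences in the values of Tgfb1, Tgfbr2 and Ltbp2 was not tested.

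**Figure D5:**
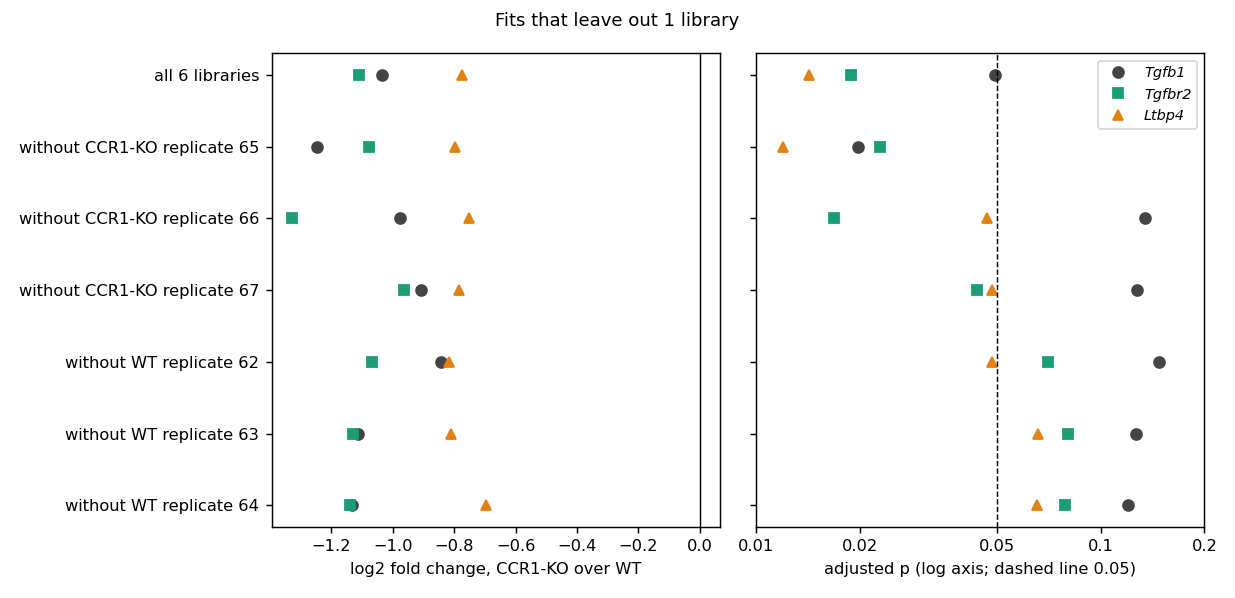
Points give the log2 fold change of CCR1-KO over WT (left) and its adjusted p on a log axis (right) for Tgfb1, Tgfbr2 and Ltbp4 in the fit of all 6 libraries and in 6 fits that each leave out 1 library. All points on the left lie between -1.33 and -0.69, while on the right Tgfb1 is under 0.05 only with all libraries and without CCR1-KO replicate 65.

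Reads of overlapping genes could not be told apart, since strand use in counting is not given. In GENCODE M21, exons of genes on the opposite strand overlap 9.34% of the Ltbp2 exons (D030025P21Rik, 0.833 reads per library on average), 4.82% and 7.60% of the Tgfb3 exons (Gm37804 and Gm48008) and 2.14% of the Tgfb2 exons (Gm29491). The protein-coding gene Ttll5 on the opposite strand (601 reads per library on average) also overlaps the Tgfb3 gene, with 0 shared exonic bases. Exons of Gm43422 on the same strand overlap 4.54% of the Tgfbr3 exons (1.83 reads per library on average). Tgfb1, Tgfbr1, Tgfbr2, Smad3 and Smad7 overlap no other annotated gene.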

How the data were processed

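Per the labels' protocols, polyadenylated liver RNA was sequenced as pairs from dUTP-marked libraries. HISAT2 2.2.1, StringTie 2.1.6, cutadapt 1.9, edgeR and DESeq2 are listed, per the submitters' processing notes, with no roles stated. Per the file headers, the authors deposited whole-number read counts and FPKM values of each gene in 6 libraries; strand use and multi-mapping are not given. The notes list a human build, whereas the table holds mouse identifiers, 27839 of them present in GENCODE M21 (GRCm38) and 25059 with identical start, end and strand.

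Counts were tested with edgeR 4.0.16 in R 4.3.3 (filterByExpr with minimum count 10 and minimum total 15, TMM scaling factors 0.779 to 1.17, glmQLFit, glmQLFTest), CCR1-KO against WT, with a threshold of 0.05 on the Benjamini-Hochberg adjusted p. Each SE was taken as the size of the fold change (log2) divided by the root of F. The biological coefficient of variation was 0.302. Replicates are taken as separate animals from the numbers in the titles; p-values measure the spread between these samples only. No 2 libraries of a group were the same library deposited again (chi-square of their counts per degree of freedom at least 62.8), which says nothing of whether they are separate animals. Alternatives were limma 3.58.1 on log2(FPKM + 0.5) with FPKM of at least 0.5 in 3 libraries, DESeq2 1.42.0, other scaling and filters, and each library left out. The fitting code was tested on simulated data.

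The members, lists and tests were chosen with earlier results of these data known. Named genes are all members, Ccr1, up to 4 genes of smallest p per pathway list, all that passed where 5 or fewer did, and the 3 genes most like each member past the threshold; other names were chosen after their values were seen. Promoters are from RefSeq.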

Additional observations from a re-analysis of the deposited data

How the results depend on the processing

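The count of genes past the threshold was 1141. It was 2548 with DESeq2 and 735 with no filter on low counts, 239 in the unfiltered limma fit added after the data were seen, and between 102 and 2419 with 1 library left out, the extremes being the fits that omit WT 63 and CCR1-KO 65. Of the 9 members, 2 passed; 1 passed with no filter on low counts and 1 without the Mup genes, which was also added later and leaves Tgfb1 at an adjusted p of 0.05004, and 0 passed in the unfiltered limma fit, where the adjusted p of Tgfbr2 was 0.0542. With 1 library left out between 0 and 2 passed, 0 without any of the 3 WT libraries. Tgfb1 and Tgfbr2 kept a negative log2 fold change in all 17 alternatives and passed in 9 and 13 of them. No paired analysis was possible because the replicate numbers of the 2 groups do not match.

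Scaling set the sign of small values. With no scaling factors the median of all genes moved to -0.30 and with limma on FPKM to -0.23, and the share of changed genes that were higher was 20.4% and 17.0%, against 43.9%. Values that turned negative with no scaling factors were Tgfbr1 -0.15, Tgfbr3 -0.15, Smad3 -0.22, Smad7 -0.24, Smad1 -0.14 and Ccn2 -0.13. In limma with a pseudocount of 0.5, with or without the filter, they were Tgfbr1 -0.17, Tgfbr3 -0.11, Smad3 -0.17, Smad7 -0.19, Smad1 -0.14 and Ccn2 -0.11. With a pseudocount of 0.1 they were -0.20, -0.15, -0.20, -0.26, -0.18 and -0.12 in the same order, and with 1 they were -0.15, -0.083, -0.15, -0.15, -0.11 and -0.092. Smad7 was -0.0021 with upper-quartile factors. Except for the unfiltered limma fit (median of all genes -0.066), each of these lies above the median of all genes in its own fit. With 1 library left out, the range was -0.47 to 0.57 for Tgfb3, -0.17 to 0.31 for Tgfbr1, -0.085 to 0.19 for Smad7, -0.10 to 0.30 for Smad1 and -0.045 to 0.43 for Ccn2. Over all named genes and alternatives, 650 values kept direction and call, 122 lost the call, 30 gained it and 38 changed sign. In the limma fits with the filter Tgfb2, Tgfb3 and Ltbp2 were not tested. The cause of these changes was not tested beyond what the fits leave out. Tgfb2 and Ltbp2 rest on as few as 15 reads in a CCR1-KO library (exact 95% interval 8.40 to 24.7, counting error only).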

Other observations

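Genes of the bone morphogenetic protein (BMP) arm, which shares SMAD4 with the TGF-beta arm, had mixed values. Of 10 tested BMP responsive genes, Atoh8 rose, 0 fell and 9 did not pass (median log2 fold change -0.17), beside 2.83% of all tested genes that rose. Atoh8, a transcription factor of hepatocyte iron sensing, had 19.5, 17.8 and 24.1 CPM in CCR1-KO replicates 65, 66 and 67, against 12.0, 8.17 and 7.95 CPM in WT replicates 62, 63 and 64 (log2 fold change 1.13 ± 0.20, adjusted p = 0.0233, passed in 2 of the 6 fits without 1 library and missed with no scaling factors, 0.82, adjusted p = 0.0519). Smad9, a SMAD of BMP receptors, had 8.15, 18.3 and 16.9 CPM in CCR1-KO, against 6.67, 5.20 and 2.00 CPM in WT, without overlap, and missed the threshold (log2 fold change 1.65 ± 0.46, adjusted p = 0.0759). Hamp, the hepcidin gene, which has a close paralog, had 99.1, 243 and 528 CPM in CCR1-KO, against 101, 12.4 and 35.8 CPM in WT (adjusted p = 0.107). Id3 had 15.6 ± 1.82 CPM in CCR1-KO and 24.0 ± 10.6 CPM in WT (adjusted p = 0.225).

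Of the 6 other SMAD genes 0 passed edgeR's test, 1 passed with DESeq2 and 2 had an unadjusted p under 0.05 in edgeR. Over all genes, 4331 of 17729 had an unadjusted p under 0.05 in edgeR, and DESeq2 called 2548 of 15651. The gene that DESeq2 called was Smad9 (its adjusted p = 0.0018), already described among the BMP responsive genes. The shared partner Smad4 had 22.4 ± 3.60 CPM in CCR1-KO and 16.6 ± 1.57 CPM in WT (adjusted p = 0.130), the inhibitory Smad6 2.98 ± 0.524 and 3.92 ± 0.333 CPM in the same order (adjusted p = 0.307), and Smad1 13.6 ± 3.88 and 12.3 ± 0.721 CPM (adjusted p = 0.698). Bmp10, a ligand made in liver by stellate cells, had 4.65, 2.65 and 4.45 CPM in CCR1-KO, against 2.16, 1.99 and 2.00 CPM in WT, without overlap (log2 fold change 0.93 ± 0.27, adjusted p = 0.0807).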
